A study of Mus musculus with 2 samples.

Results

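The integrated stress response genes described here are Atf4, Atf5, Ddit3, Trib3, Asns, Sesn2 and Ddit4, 7 of the 27933 gene symbols in the deposited matrices, found by their symbols. They were followed in microglia, the resident macrophages of the brain, in 2 single-cell RNA-seq libraries, which sample the medial and the lateral region of the corpus callosum, a large white matter tract. All cells came from mice of strain C57Bl6 and genotype CX3CR1 that had received cuprizone, a copper-binding toxin that causes loss of oligodendrocytes and myelin, for 4 weeks, so that both libraries share strain, genotype and treatment and neither is an untreated control. The sources used here do not give the allele at the Cx3cr1 locus, the age and number of mice behind each library or the sorting gate. With 1 library per region there is no test between regions: each difference is between 2 libraries, and the intervals, at 95%, hold only the error of counting.

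The integrated stress response is a signalling pathway in which several kinases, each sensing another kind of stress, phosphorylate the translation initiation factor eIF2. Protein synthesis then falls in general, while the mRNA of the transcription factor ATF4 is translated more, so that ATF4 protein can change without its mRNA. ATF4 and its partners induce genes for amino acid supply, for further transcription factors such as CHOP (the product of Ddit3), and for feedback inhibitors of growth and stress signalling. Transcripts alone were counted here, and neither eIF2 phosphorylation nor protein was measured.

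ATF4 binds with C/EBP family members at the C/EBP-ATF element, searched here as TGATGNAA on both strands of the 250 bases before each RefSeq transcript start (GRCm38.p6). All 7 genes had a promoter in the table, 8 promoters in all. The 2 windows printed, of Asns and Ddit3, hold the only matches to a searched motif in these promoters. The motif is in capitals and each sequence is on the strand of its gene. A link between these motifs and the levels below was not tested. The Asns window, chr6:7693214-7693243, has the C/EBP-ATF element 23 bases before the RefSeq start and lies in an exon of the GENCODE M21 annotation. The Ddit3 window, chr10:127290543-127290572, has an AP-1 site (TGACTCA, the element bound by Fos and Jun proteins) 242 bases before the start.
Asns: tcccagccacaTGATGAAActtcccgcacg
Ddit3: cgcgcgcaTGACTCActcacctcctccgcg
TGATGNAA occurred in 3.45% and TGACTCA in 4.46% of all 32851 promoters of this length. Atf4, Atf5, Trib3, Sesn2 and Ddit4 had no match to either motif in this window, and none of the 7 genes matched the cAMP response element TGACGTCA or the ER stress element, which says only that these letters are absent from these bases.

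Cells were barcodes with at least 2400 unique molecular identifiers (UMIs, 1 per captured transcript) and at most 10% mitochondrial UMIs. This left 2131 medial and 2308 lateral cells with medians of 10732 and 9694 UMIs. Microglial markers made up 229 and 230 of every 10000 UMIs, whereas the highest of 15 lists for other cell types, the endothelial one, reached 1.15 and 0.986. Immediate early genes, which tissue dissociation can induce, took 0.959% of medial and 0.773% of lateral UMIs, and this gap is set beside the results it touches. Among cell barcodes, 7 were called in both libraries.

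The transcription factors Atf4 and Ddit3 were by far the most counted of the 7 genes. Together they held 85.3% of the 7 genes' medial UMIs and 82.6% of the lateral ones. At least 1 of the 7 genes was found in 84.4% of medial and 77.6% of lateral cells. Levels are given as CPM, the gene's UMIs summed over cells and scaled to a common total. A 3' library counts transcript ends, so these levels are not divided by gene length.

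Atf4, the central transcription factor of the pathway, gave 149.9 CPM in medial cells (interval 145 to 155) and 117 CPM in lateral cells (113 to 122). It was the gene of the 7 with the clearest regional gap: the medial level was 1.28-fold higher, a log2 ratio of 0.36 (0.28 to 0.43). Its annotated gene (GRCm38, GENCODE M21) lies on the plus strand at chr15:80255184-80257541. Atf4 UMIs were found in 70.4% of medial and 59.0% of lateral cells. With every cell thinned at random to 3869 UMIs, which left 2000 medial and 2077 lateral cells, the shares were 41.25% (39.1 to 43.4) and 34.5% (32.5 to 36.6). Cells with 5 or more Atf4 UMIs numbered 137 among medial and 78 among lateral cells.

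Ddit3, which encodes CHOP, a factor that drives the late and pro-apoptotic arm of the response, was at 78.6 CPM in medial cells (75.1 to 82.3) and 69.2 CPM in lateral cells (65.9 to 72.7). The log2 ratio was 0.18 (0.09 to 0.28), so the medial library was higher by more than counting error but by less than 1.2-fold. After thinning, 23.6% of medial and 21.3% of lateral cells held a Ddit3 UMI, and the intervals of these shares overlapped (21.8 to 25.5 and 19.5 to 23.1). The gene, at chr10:127290774-127296288, overlaps Mars at its edge on the opposite strand, and the sources used here do not say whether the authors' counting used strand. Atf5, a relative of Atf4 that takes part in the mitochondrial unfolded protein response, was at 15.3 CPM (13.8 to 17.0) and 14.6 CPM (13.1 to 16.2). Its log2 ratio of 0.07 (-0.15 to 0.29) spans a ratio of 1. Atf5, at chr7:44812256-44816658, overlaps Nup62 and Il4i1 on the opposite strand.

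Trib3, a pseudokinase induced by ATF4 and CHOP that feeds back on both, was rare and the only member past 1.2-fold in favour of the lateral library. It was counted 52 times in medial and 75 times in lateral cells, which gives 2.22 CPM (1.66 to 2.91) and 3.25 CPM (2.56 to 4.08) and a log2 ratio of -0.55 (-1.09 to -0.02). A single lateral cell carried 7 of those UMIs, while no medial cell held more than 2. Without that cell, left out after its values were seen, the ratio was -0.41 (-0.96 to 0.13), an interval that includes a ratio of 1. The random thinning turned the sign: the planned draw gave 0.11, and 4 further draws, added after that value was seen, gave -0.40, -0.30, -0.38 and -1.01. Trib3 is annotated at chr2:152337422-152344032.

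Asns, the asparagine synthetase and a classical ATF4 target, was at 7.98 CPM in medial cells (6.87 to 9.21) and 8.42 CPM in lateral cells (7.27 to 9.69). The log2 ratio of -0.08 (-0.38 to 0.22) spans 1. Asns, at chr6:7675169-7693254, was found in 6.76% of medial and 6.54% of lateral cells, and 28 medial and 33 lateral cells held at least 2 UMIs of it. Sesn2, a sestrin that restrains mTORC1 when leucine is scarce, was at 11.0 CPM (9.74 to 12.5) and 9.55 CPM (8.33 to 10.9), a log2 ratio of 0.21 (-0.05 to 0.48). Ddit4, also called REDD1, which inhibits mTORC1 and answers to glucocorticoids and hypoxia as well as to ATF4, was at 2.99 CPM (2.33 to 3.77) and 3.51 CPM (2.79 to 4.37). Its log2 ratio was -0.24 (-0.72 to 0.24), resting on 70 medial and 81 lateral UMIs. Sesn2 lies at chr4:132492032-132510501, where the gene model Gm12981 overlaps it on the same strand, and Ddit4 at chr10:59949669-59951834.

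**Figure D1:**
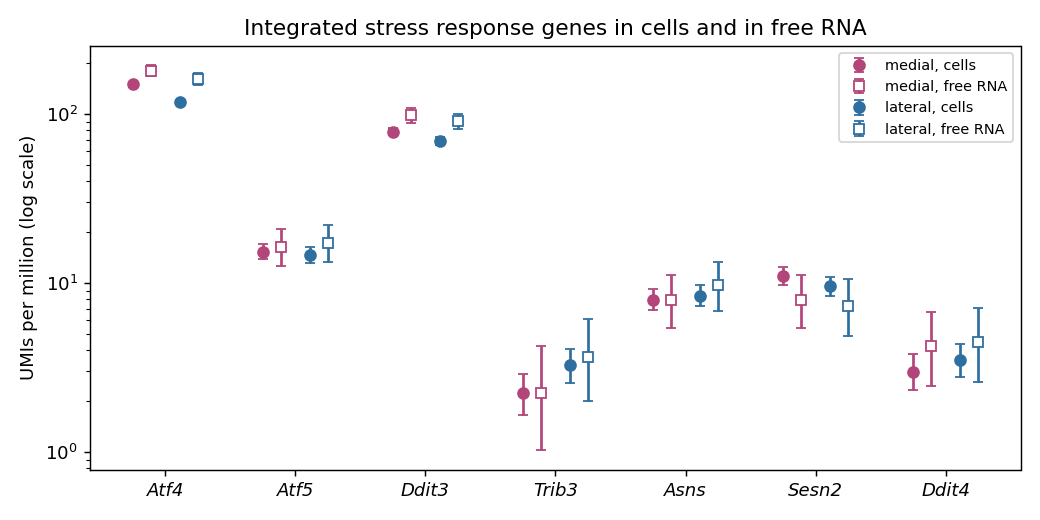
Level of each gene in CPM (log axis) in the cells of each library (filled circles) and in free RNA, the barcodes of 10 to 100 UMIs (open squares), with 95% Poisson intervals. Atf4 stands at 149.9 in medial against 117 in lateral cells, while the intervals of Atf5, Trib3, Asns, Sesn2 and Ddit4 overlap between libraries.

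The order of levels was the same in both libraries, from Atf4 through Ddit3, Atf5, Sesn2, Asns and Ddit4 to Trib3. Neighbours in this order had intervals that did not overlap, except Ddit4 and Trib3 in both libraries and Sesn2 and Asns in the lateral one. Free RNA, that of barcodes with 10 to 100 UMIs, had Atf4 at 181 (medial) and 161 CPM (lateral), above the level in cells, and Ddit3 at 98.2 and 90.6 CPM. A droplet with 100 UMIs of free RNA would hold 0.0181 Atf4 UMIs in the medial library, against a mean of 1.65 per cell. No other cell type was present in number, so the share of positive cells in a type that lacks these genes could not be given.

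2 of the 7 genes were past 1.2-fold, Atf4 with the medial and Trib3 with the lateral library higher. Over all 11324 genes with at least 30 UMIs, 10.6% were past 1.2-fold with medial higher and 10.1% with lateral higher. The share depends on abundance: among genes with at least 3000 UMIs over both libraries, such as Atf4, 5.65% were past 1.2-fold with medial higher and 1.65% with lateral higher. Among genes with under 300 UMIs, such as Trib3, 22.7% were past it in each direction. The whole interval lay above a ratio of 1 for 2 of the 7 genes, Atf4 and Ddit3, against 10.5% of all genes. It lay below a ratio of 1 for Trib3, against 16.3% of all genes. These shares of all genes were not matched to abundance, although intervals are narrower for genes with more UMIs. The members' median log2 ratio was 0.07, that of Atf5, beside -0.03 for all genes. A share of 1 in 7 genes is near the background in each direction.

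**Figure D2:**
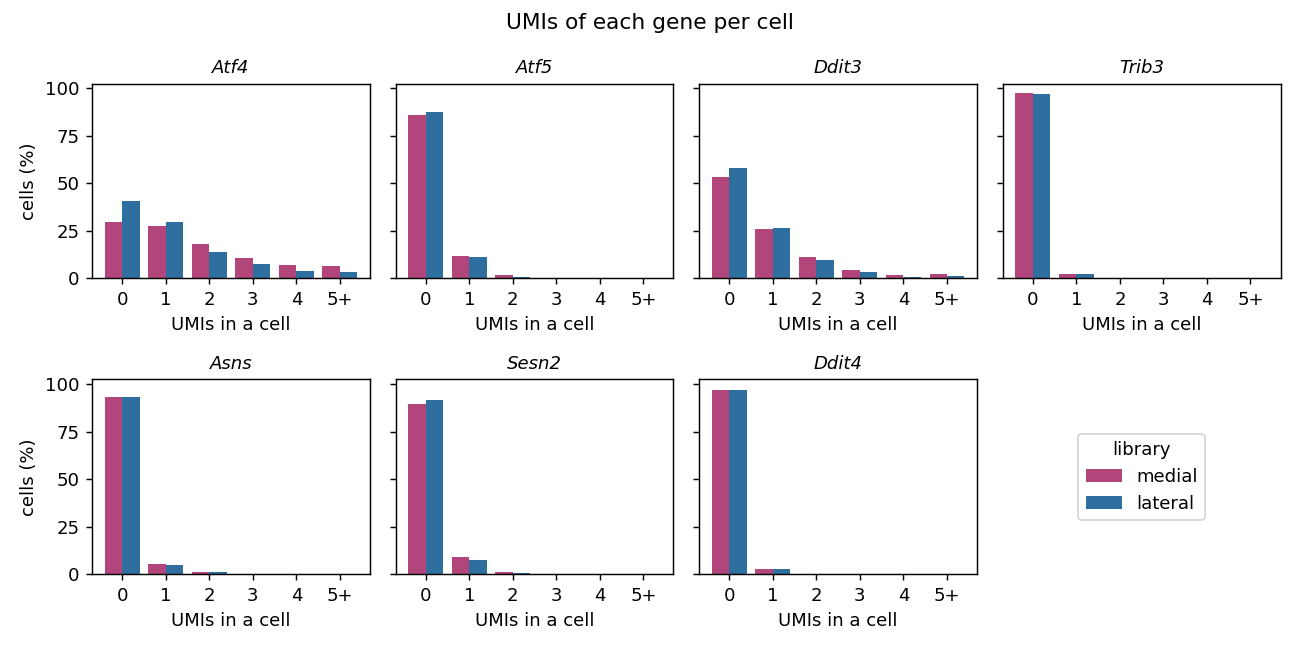
Percent of cells of each library with 0, 1, 2, 3, 4 or at least 5 UMIs of each gene, at each cell's own depth. Only Atf4 and Ddit3 are often counted more than once in a cell, and the medial bars of Atf4 are higher from 2 UMIs upward.

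Because the medial library was also higher in immediate early genes and in UMIs per cell, Atf4 and Ddit3 were compared within 5 ranges of the immediate early share whose boundaries were common to both libraries, a comparison added after the data were seen. Atf4 was higher in the medial library in 5 of 5 ranges. In the lowest range it was at 118 CPM in medial and 90.1 CPM in lateral cells, and in the highest range at 187 and 154 CPM. The log2 ratios ran from 0.23 to 0.39 and each interval lay above 0. Ddit3 was higher in 3 of 5 ranges, with log2 ratios from -0.09 to 0.27. The mean over the ranges, weighted by cells, was 0.08 for Ddit3, against 0.18 over all cells. For Atf4 this mean was 0.29, against 0.36 over all cells. Among cells below the median UMI total of both libraries the Atf4 log2 ratio was 0.23 (0.10 to 0.37), and among the deeper cells 0.41 (0.32 to 0.50). The highest range has no upper bound, and the top quintile of each library had a median share of 2.00% (medial) and 1.42% (lateral). With 1 library per region, no difference between the libraries can be told apart from the region. This includes the immediate early share and depth.

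**Figure D3:**
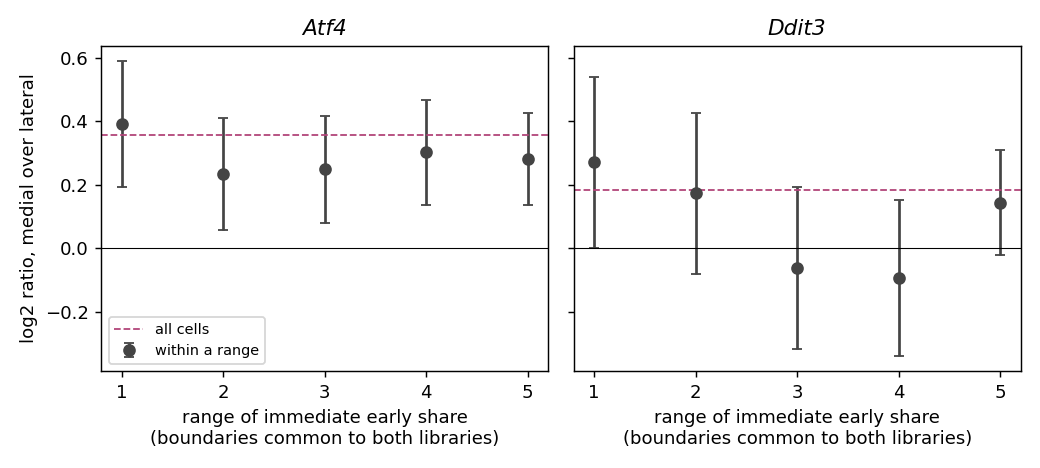
Log2 ratio of medial over lateral for Atf4 and Ddit3 (points, with 95% counting intervals) within 5 ranges of the immediate early share of UMIs, beside the ratio over all cells (dashed line). All 5 Atf4 intervals lie above 0, whereas 3 of 5 Ddit3 points do.

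The other genes of the pathway were read from 12 lists, of which 164 genes had at least 30 UMIs and 28 were past 1.2-fold in either direction. Over all 11324 genes, 10.6% were past it with medial higher and 10.1% with lateral higher. Among genes with under 300 UMIs 22.7% were, in each direction. The counts of the lists stand beside these shares, and no list was tested against them. The first list holds the eIF2 kinases and the subunits of eIF2 and its exchange factor eIF2B. Of its 14 genes, 0 were past 1.2-fold with medial higher and 1 with lateral higher. That gene was Eif2b5, the catalytic subunit of eIF2B, at 19.3 CPM in medial and 25.6 CPM in lateral cells, log2 ratio -0.41 (-0.59 to -0.23). Eif2ak2, the kinase PKR, was at 31.4 and 28.2 CPM, and Eif2s2, the most counted of the list, at 207 and 198 CPM. The median of the list was -0.04.

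Among the eIF2 phosphatase genes and the partners of ATF4, 3 of 12 were past 1.2-fold with medial higher and 0 with lateral higher. Jun, an AP-1 protein, had 487 and 331 CPM and a log2 ratio of 0.56 (0.51 to 0.60). Atf3, a repressor induced downstream of ATF4, had 414 and 299.6 CPM and a log2 ratio of 0.47 (0.42 to 0.51). Ppp1r15a, which encodes GADD34, the subunit that directs the phosphatase to eIF2 and ends the response, was the third, at 229 and 164 CPM, log2 ratio 0.48 (0.42 to 0.54); it was named after its values were seen. All of Jun, Atf3 and Ppp1r15a are also in the immediate early list, where 18 of 24 genes were past 1.2-fold with medial higher. Cebpb, the most counted partner, was at 1360 and 1312 CPM, log2 ratio 0.05.

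Few ATF4 targets in amino acid supply were past 1.2-fold. Of the genes for amino acid synthesis and one-carbon metabolism, 0 of 10 were past 1.2-fold in either direction, and the median was -0.11. Psat1, of serine synthesis, was at 233 CPM in medial and 254 CPM in lateral cells, log2 ratio -0.12 (-0.17 to -0.07), and Got1 at 81.6 and 90.2 CPM. Of the aminoacyl-tRNA synthetases, which charge tRNAs with amino acids, 0 of 20 were past 1.2-fold, with a median of -0.05; Nars, the most counted, was at 101 and 104 CPM. Among amino acid transporters 1 of 8 was past 1.2-fold in each direction, Slc7a11 with medial higher and Slc1a4, from 17 and 23 UMIs and named after its values were seen, with lateral higher. Slc7a11, the cystine transporter, had 68.7 and 45.6 CPM, a log2 ratio of 0.59 (0.48 to 0.70), against Slc3a2, the heavy chain it pairs with, at 196 and 214 CPM, log2 ratio -0.13 (-0.19 to -0.08).

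Of the other targets of ATF4 and CHOP, 6 of 18 were past 1.2-fold with medial higher and 2 with lateral higher, and the median was 0.14. Rcan1, a calcineurin inhibitor, had 56.5 and 31.8 CPM, a log2 ratio of 0.83 (0.70 to 0.96). Herpud1, of ER-associated degradation, had 274 and 221 CPM, a log2 ratio of 0.31, beside 301 and 245 CPM and 0.30 for the autophagy receptor Sqstm1. The 2 with lateral higher were Gdf15 and Wfs1, the latter with 19 and 24 UMIs and named after its values were seen. Gdf15, a secreted stress hormone, had 7.04 and 9.29 CPM, a log2 ratio of -0.40 (-0.70 to -0.10). Eif4ebp1, a translation inhibitor, was under 1.2-fold, at 101 and 117 CPM, log2 ratio -0.21 (-0.29 to -0.13). For the unfolded protein response of the ER, 2 of 20 were past 1.2-fold with medial higher and 0 with lateral higher. These were the co-chaperone Dnajb9, log2 ratio 0.41 (0.30 to 0.53), and the chaperone Hyou1, log2 ratio 0.31 (0.12 to 0.51), while Hspa5 (BiP), the main ER chaperone, was at 1125 and 1124 CPM, log2 ratio 0.00.

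Of the mitochondrial stress relay and proteostasis genes 1 of 13 was past 1.2-fold, the prohibitin Phb, with medial higher at a log2 ratio of 0.28 (0.17 to 0.38). Of the mTORC1 regulators, the machinery through which Sesn2 and Ddit4 act, 3 of 19 were past 1.2-fold, all with lateral higher, among them Tsc1 at 7.17 and 9.20 CPM, log2 ratio -0.36 (-0.66 to -0.06). 3 further lists hold genes under other factors that can also act on Ddit4 or Sesn2. Of the glucocorticoid targets 3 of 9 were past 1.2-fold, all with medial higher, including Dusp1 (0.47) and Tsc22d3 (0.28). Of the hypoxia targets 1 of 14 was past it with medial higher (Pgk1, 0.93) and 2 with lateral higher, including Egln3 (-0.45). Of the p53 targets 2 of 14 were past it in each direction, among them Btg2 (0.38), Mdm2 (0.37) and Phlda3 (-0.40).

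**Figure D4:**
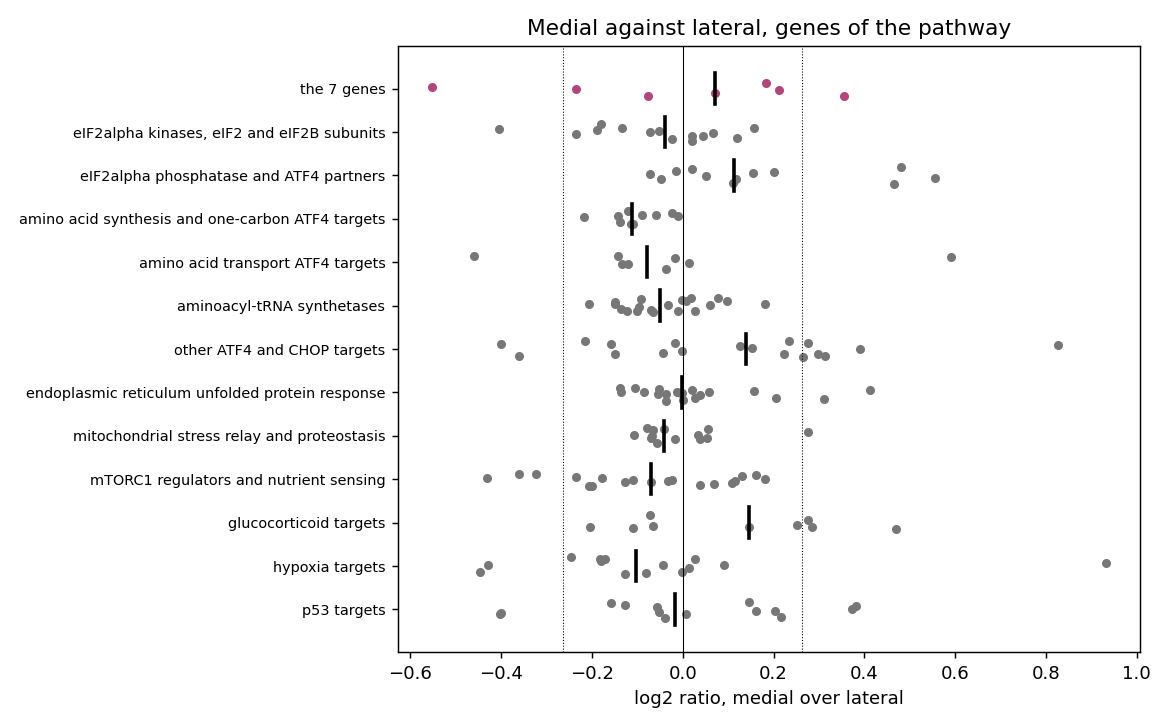
Log2 ratio of medial over lateral for the 7 genes (top row) and for the measured genes of the 12 pathway lists (grey points), with the median of each list as a black bar and dotted lines at 1.2-fold. The synthetases and the amino acid synthesis genes all lie between the dotted lines, and Atf4 and Trib3 are the members outside them.

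Across cells of the same library, the 7 genes did not follow the same programmes. Cells were ordered by the share of UMIs in another gene list, after thinning and with no member in the list, or by UMI total or mitochondrial share, and parted into quintiles, which are ranges of a score and not cell types. Of 91 combinations of a member and an ordering with at least 30 UMIs in the top and bottom quintiles together in each library, 22 differed by 1.5-fold or more between top and bottom quintile in the same direction in both libraries. Asns accounted for 9 of them (7 higher, 2 lower), Ddit3 for 4, Atf4 for 3, Sesn2 and Ddit4 for 2 each, and Atf5 and Trib3 for 1 each. No share of all genes over the 17 orderings together was computed. The shares given below, per ordering, hold genes of all abundances and are not matched to members with few UMIs, such as Asns, Sesn2 and Ddit4. The orderings overlap, as the immediate early list is used both whole and without genes linked to ATF4.

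Atf4, Ddit3 and Sesn2 were higher where immediate early genes were higher. Atf4 went from 121 CPM in the bottom to 197 CPM in the top quintile of the medial library and from 90.1 to 147 CPM in the lateral one, log2 ratios of 0.70 and 0.71. For Ddit3 the top quintile stood apart. In the 4 lower quintiles it stayed between 56.5 and 63.4 CPM in the medial and between 52.4 and 60.5 CPM in the lateral library, and in the top quintile it was at 151 and 114 CPM. The log2 ratios of top over bottom were 1.25 (1.05 to 1.46) and 1.12 (0.89 to 1.34). Sesn2 was at 5.13 CPM in the bottom and 16.5 CPM in the top quintile of the medial library, and at 8.40 and 14.1 CPM in the lateral one. Of 9062 genes tested, 6.69% were higher in the top quintile by this rule in both libraries.

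The same 3 genes stayed above 1.5-fold when genes linked to ATF4, such as Atf3, Jun and Ppp1r15a, were left out of the ordering, decided once results were known. Log2 ratios were then 0.66 and 0.64 for Atf4, 1.16 and 1.11 for Ddit3, and 1.45 and 0.97 for Sesn2, against 6.79% of all genes. Ddit4 was also past 1.5-fold in this ordering, at 1.83 (0.67 to 3.16) and 0.63 (-0.33 to 1.64), whereas with the whole list it gave 1.49 and 0.49. Median UMI totals hardly differed between the quintiles of the immediate early share (11122.5 in the bottom and 11257.5 in the top quintile of the medial library). Within the shallower cells of each library the Ddit3 log2 ratio was 1.30 in medial and 0.63 in lateral cells, and within the deeper ones 1.23 and 1.32. For Atf4 the shallower cells gave 0.45 (0.19 to 0.72) in the medial library, under 1.5-fold, and 0.77 in the lateral one, and the deeper cells 0.82 and 0.69. For Sesn2 the shallower lateral cells gave 0.07 (-1.05 to 1.18) and the deeper ones 1.08 (0.33 to 1.87).

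Atf4 and Ddit3 were also higher in cells with more cytokine and NF-kB transcripts. The log2 ratios of top over bottom quintile were 0.69 in both libraries for Atf4, and 0.78 and 0.73 for Ddit3. Of all genes, 5.15% were higher by the rule. The cytokine and NF-kB list was itself higher in the medial library, at 11925.5 against 9608 CPM in sum. Of its 24 genes, 13 were past 1.2-fold with medial higher and 0 with lateral higher. How this gap bears on the regional ratios of Atf4 and Ddit3 was not tested. Ddit3 and Ddit4 were higher with glucocorticoid targets (3.56% of all genes were). Ddit3 stood at 59.6 CPM in the bottom and 112 CPM in the top quintile of the medial library, and at 51.0 and 101 CPM in the lateral one. Ddit4 was at 2.49 and 6.15 CPM in the medial and at 2.76 and 5.77 CPM in the lateral library, from at most 29 UMIs a quintile. The glucocorticoid list shares Dusp1 with the immediate early list.

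Asns went in the other direction. In the top quintile of cytokine and NF-kB transcripts it was lower, at 4.79 CPM against 15.0 CPM in the bottom quintile of the medial library and at 7.02 against 12.1 CPM in the lateral one, log2 ratios of -1.64 and -0.79 (1.61% of all genes were lower by the rule). With immediate early genes Asns was lower in the medial library, log2 ratio -1.58 (-2.29 to -0.92), and at -0.01 (-0.65 to 0.63) in the lateral one, so no call was made in both.

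Asns was instead higher with the genes of amino acid supply. Across quintiles of the aminoacyl-tRNA synthetases it was at 3.55, 5.32, 6.82, 8.64 and 14.4 CPM in the medial library and at 4.96, 6.17, 6.30, 9.07 and 15.5 CPM in the lateral library. Each step was upward in both libraries, and the log2 ratios of top over bottom were 2.02 (1.18 to 2.96) and 1.65 (0.92 to 2.44), against 3.82% of all genes higher. With amino acid synthesis and one-carbon genes the Asns log2 ratios were 2.08 and 1.64 (6.69% of all genes), and with amino acid transporters 1.2 and 1.69 (1.28% of all genes). Asns was also higher with glycolysis (1.09 and 1.47, 4.97% of all genes), the ER unfolded protein response (1.31 and 0.72, 6.25%) and hypoxia targets (0.95 and 0.68, 1.66%). It was lower with the mitochondrial share (-0.65 and -1.47, 2.03% of all genes lower). For Asns the medial interval with the mitochondrial share, -1.45 to 0.12, includes equal levels. So does its lateral interval with the ER unfolded protein response, -0.01 to 1.48.

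Depth moved with this result. Asns was higher in cells with more UMIs, at 5.01 CPM in the bottom and 11.6 CPM in the top quintile of UMI total in the medial library and at 5.17 and 13.8 CPM in the lateral one (4.53% of all genes were). The median UMI total was 9691.5 in the bottom and 12131.5 in the top synthetase quintile of the medial library, and 9262.5 and 11325 in the lateral one. Within the deeper cells of each library the Asns log2 ratio over the synthetase quintiles was 2.15 (1.09 to 3.43) in medial and 1.42 (0.56 to 2.37) in lateral cells. Within the shallower cells it was 1.06 (-0.59 to 2.83), from 9 against 6 UMIs, and 1.77 (0.30 to 3.44). Over the amino acid synthesis quintiles the deeper cells gave 1.57 and 1.83, the shallower medial cells 2.97 from 14 against 3 UMIs, and the shallower lateral cells 0.57 (-0.85 to 1.99), under 1.5-fold, from 10 against 10 UMIs. Over the synthetase quintiles Atf4 gave 0.28 and 0.32, under 1.5-fold, and Ddit3 -0.11 and 0.36. Trib3 had enough UMIs for this comparison by UMI total alone, with 1.37 CPM in the bottom and 3.90 CPM in the top medial quintile and 1.41 and 5.33 CPM in the lateral ones. Its log2 ratios were 1.51 (-0.18 to 3.87), an interval that includes equal levels, and 1.92 (0.27 to 4.26).

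**Figure D5:**
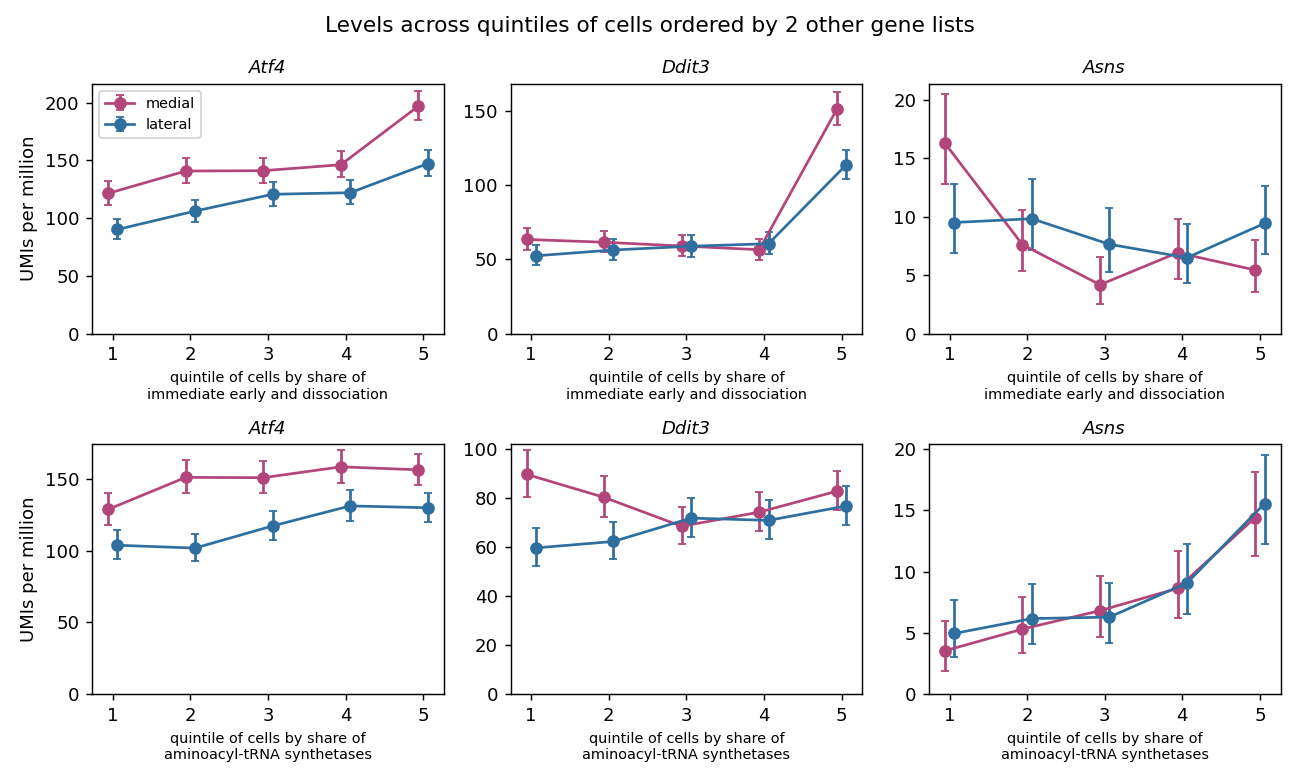
CPM of Atf4, Ddit3 and Asns in quintiles of cells ordered by immediate early genes (upper row) and by aminoacyl-tRNA synthetases (lower row), with 95% Poisson intervals, in the medial and lateral libraries. Ddit3 stands apart in the top immediate early quintile (151 and 114), and Asns climbs with the synthetases to 14.4 and 15.5.

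Atf5 was the member that was lower in cells rich in homeostatic microglial genes. It was at 19.2 CPM in the bottom and 12.1 CPM in the top quintile of the medial library and at 17.9 and 11.4 CPM in the lateral one, log2 ratios of -0.67 (-1.18 to -0.16) and -0.66 (-1.19 to -0.13), against 2.03% of all genes lower by the rule. Across quintiles of disease-associated microglial genes no member with at least 30 UMIs differed by 1.5-fold in both libraries, where 2.21% of all genes were higher and 11.6% lower. Atf4 gave log2 ratios of -0.27 and -0.40 there, beside medians of -0.26 and -0.24 for all genes. No member with at least 30 UMIs did so across quintiles of the interferon response (1.29% of all genes were higher and 0.895% lower), of MHC class II (1.04% and 1.07%) or of proliferation genes (11.2% and 1.28%), and the Atf4 log2 ratios there lay between -0.15 and 0.28. Trib3 reached that minimum in the ordering by UMI total alone. Across the proliferation quintiles it gave 1.39 (0.02 to 2.99) and 0.63 (-0.43 to 1.77), from 26 medial and 35 lateral UMIs. Across those of amino acid synthesis and one-carbon genes it gave 1.58 (0.11 to 3.35) and 2.15 (0.98 to 3.56), from 24 and 47 UMIs. With immediate early genes it gave 1.19 and 1.41. With the mitochondrial share it was lower, at -0.90 and -1.69. With cytokine and NF-kB transcripts the libraries differed in sign, at 1.60 and -1.09.

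Co-detection of the members in single cells depended on depth. A pair was counted where the first gene was in a larger share of cells with the second than without it, in both libraries. With cells thinned to 1 depth, 9 of 21 pairs were counted, and at each cell's own depth 20 of 21 were. Any gap counted, such as Atf4 in 41.4% of medial cells with Atf5 and in 41.2% without. The share over other pairs of genes was not computed, so these counts have no background. Trib3 was found in 2.06% of medial cells with an Atf4 UMI (1.2 to 3.28) and in 0.681% without (0.294 to 1.34). In lateral cells the shares were 1.67% (0.868 to 2.91) and 0.662% (0.303 to 1.25). The intervals overlapped in both libraries. Ddit3 was found in 25.5% of medial cells with an Atf4 UMI and in 22.3% without, and in 23.3% and 20.2% of lateral cells, again with overlapping intervals. Asns was found in 2.55% of medial cells both with and without Atf4, and in 2.93% and 2.57% of lateral cells.

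Cells with 5 or more of the 7 genes were few (11 medial and 17 lateral cells), and 1 lateral cell, with 34256 UMIs, held all 7. The lateral cell with 7 Trib3 UMIs, singled out after its values were seen, had 19019 UMIs and held 6 of the 7 genes. It carried 10 Atf4, 9 Ddit3, 5 Asns, 3 Sesn2 and 1 Atf5 UMIs. At the mean level of its library a cell of this size would hold 2.23 Atf4, 1.32 Ddit3, 0.0619 Trib3 and 0.160 Asns UMIs. Of 91 other genes, those of 6 of the 12 pathway lists, 57 had more UMIs in it than at the library's mean. Another 31 were below the mean and 3 at it. The share over all genes of this cell, or over the other lists, was not computed, so this count has no background. The examples that follow were picked after their values were seen. Above the mean were 32 UMIs of Herpud1 against 4.20 at the library's mean, 21 of Slc3a2 against 4.08, 22 of Atf3 against 5.70, 13 of Phgdh against 4.00 and 12 of Nars against 1.97. Below it were 4 UMIs of Psat1 against 4.82, 0 of Got1 against 1.71 and 0 of Slc7a11 against 0.867. It was the cell with most Asns as well as most Trib3 UMIs in its library. The medial cell with most Asns UMIs, 8 of 28973, held 5 of the 7 genes but no Trib3.

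The genes whose counts per cell were most like the summed counts of the 7 genes were found by Pearson's r of log2(UMIs + 1) in thinned cells, taking for each gene the smaller r of both libraries. Among 3828 genes the 10 highest were Egr1, Ifrd1, Atf3, Ier2, Jun, Klf6, Wsb1, Herpud1, Hspa5 and Ccnl1. Their smaller r ran from 0.145 for Egr1 to 0.108 for Ccnl1, beside a 99th percentile of 0.0726 over all genes compared. Egr1, Ier2 and Klf6 are immediate early genes, as are Atf3 and Jun. All these values are weak and describe the order of genes only. Atf4 and Ddit3 held 85.3% of the summed medial and 82.6% of the summed lateral UMIs. The similarity is therefore mostly to these 2 genes and was not computed for each member.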

How the data were processed

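The values are counts of UMIs per gene and barcode, as deposited by the authors, with no normalisation. The submitters' processing notes name Cell Ranger 2.0.1, the aligner STAR and the build mm10; the gene annotation version was not given in the sources used here. Cells were loaded uncultured after dissociation and sorting, per the labels' protocols. Gene IDs with a common symbol (56 symbols) were added up.

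Cells (at least 2400 UMIs, at most 10% mitochondrial UMIs, a limit that removed 3 barcodes in each library) held 23442512 medial and 23047682 lateral UMIs. No clustering was done and no doublet caller was run; leaving out the 5% of cells with most UMIs was an alternative. CPM has an exact Poisson interval, a ratio an exact conditional binomial one and a share of cells an exact Clopper-Pearson one, all at 95% and for counting error only. On simulated counts of 11324 genes, 95.4% of ratio intervals held the true ratio. These counts were Poisson draws of library sums, as the interval assumes, with no spread between cells. They check the computation only. Thinning left out 131 medial and 231 lateral cells of fewer UMIs. The sums, intervals and ratios were computed with numpy 2.4.6, scipy 1.17.1 and pandas 2.3.3 in Python 3.11.15.

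The members and all lists were chosen with earlier results of these data known. From each pathway list the text names the measured gene with most UMIs and, in either direction, the 2 whose interval bound lies farthest from 1, as space allows, and any other gene is marked. 3 of the 17 orderings of cells, the minimum of 30 UMIs for a member in them, the split by UMI total, the common ranges of the immediate early share, the further draws and the left-out cell were chosen after results were seen. 4 listed genes were not analysed here. Motifs were searched in RefSeq promoter sequences of GRCm38.p6, and gene positions are from GENCODE M21. In GENCODE M21, 0 of 444 windows of 57 bases near each member's transcript end occur in the transcripts of a gene with another symbol. The window length is the read length per the labels. Ddit3 has 1 further gene ID with its symbol in that annotation, which was not searched.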

Additional observations from a re-analysis of the deposited data

How the results depend on the processing

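No paired analysis was possible because each region has 1 library and the labels give no replicate numbers. The number of members past 1.2-fold, 2, was 2 in 9 of 10 alternatives. It was 3 (with Ddit4) in cells of the lower 3 quintiles of the immediate early share. In thinned cells the 2 were Atf4 and Ddit4, not Trib3. The alternative without a minimum of UMIs per gene could not change this count, as every member passed the minimum. Centring on the median gene, or leaving the 10 most counted genes out of the total, only moved all ratios alike. Atf4 kept its direction in 16 of 16 alternatives, with log2 ratios from 0.26 to 0.39, and Ddit3 in 16 of 16, from 0.08 to 0.30. Trib3 turned to 0.11 in the planned thinning, where few of its UMIs are left, and ran from -1.01 to -0.30 in the other 15. Ddit4 ran from -0.57 to 0.41, with the sign of its value over all cells in 9 of 15, Asns from -0.19 to 0.11 (10 of 15), Atf5 from -0.01 to 0.17 (13 of 15) and Sesn2 from 0.05 to 0.51 (15 of 15). The count of pathway genes past 1.2-fold, 28, ran from 26 to 37.

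At each cell's own depth 20 of 21 pairs of members were found together more often, against 9 after thinning. The 22 combinations of member and ordering became 16 with cells parted into 3 ranges, 12 of them among the 22, and 23 with cells ordered without thinning, 20 of them among the 22. Without the minimum of 30 UMIs, and over the 14 orderings first used, the count was 23 and fell to 12 with 3 ranges, over 1.5 times fewer; over all 17 orderings without it, 31 fell to 16. The cause was not tested. Of the 10 most similar genes, 7 were among the 10 with Spearman's rho and 8 with all cells scaled to 1 total. Trib3 and Ddit4, with at most 81 UMIs a library, are limited by depth.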
